A study of Mus musculus with 17 samples.

Results

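The presynaptic vesicle and release machinery is described here by 40 genes, all of which were listed in each of the 4 count tables, out of 35841 genes listed in at least 1 table. The rule that sets them is a list of gene names and uses no measured value. The 40 genes were chosen, however, with earlier results of these data known. They comprise 4 vesicle transporters, 9 calcium sensors and their partners, 6 fusion proteins, 7 active zone genes and 14 genes of the vesicle membrane and its recycling. RNA was sequenced from 14 libraries of C57BL/6 mouse primary neurons and from 3 libraries of C57BL/6 mouse hippocampus. The neurons form 7 groups of 2 libraries: an agent labelled ADM with its control, an ApoE particle with its control (set 1), and a second experiment (set 2) in which neurons served as control or were given the ApoE particle or a reconstituted ApoE particle. The hippocampi came from mice given control shRNA (1 library without FC and 1 with it) or ApoE shRNA (1 library, with FC). ADM and FC are not spelled out in the labels, and neither the age and number of the mice, the age and brain region of the neuron cultures, the source of the particles, nor the vector and promoter of the shRNA is given there. The labels do not say whether the 2 libraries of a neuron group came from separate cultures, so each p-value measures the spread between these libraries, which may be technical.

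A nerve terminal fills its vesicles with transmitter through transporters of the Slc families, which mark what the neuron releases: Slc17a7 (VGLUT1) and Slc17a6 (VGLUT2) load glutamate, Slc32a1 (VGAT) loads GABA and glycine, and Slc30a3 (ZnT3) loads zinc. Filled vesicles dock at the active zone, a scaffold of RIM, Munc13, Bassoon, Piccolo and ELKS proteins, and fuse when the vesicle protein VAMP pairs with SNAP25 and syntaxin of the plasma membrane. Synaptotagmins sense the calcium that triggers fusion, complexins clamp and promote it, NSF with its adaptors takes the fused complex apart, and dynamin and amphiphysin bring the membrane back.

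The smallest library held 14.62 M counts and the largest 19.14 M. Levels are given as CPM, a gene's counts put on a common scale of library size; those of neurons were scaled within each experiment, and a level set beside that of another experiment is a description only. Libraries of a group differed by more than sampling noise in all 7 neuron groups. The second ADM library stood apart, with 1256 CPM summed over 11 vessel and fibroblast markers against 26.3 to 90.3 in the other 3 libraries of that experiment. The hippocampus library with control shRNA and FC also stood apart, with 1654 CPM summed over 12 microglia markers against 366 and 279.5 in the other hippocampus libraries. All 12 pan-neuronal markers had counts in all 17 libraries, while astrocyte markers summed to between 823 and 5079 CPM in the neuron libraries. In such bulk samples, fewer cells of a type and less RNA per cell cannot be told apart.

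Per kilobase of exon, Vamp2, the main vesicle SNARE, had the highest median level of the 40 genes in the neuron libraries (132 CPM per kb, range 107 to 226). Syt11 (106, range 77.9 to 139) and Syt4 (98.4, range 41.2 to 133) came next, and their ranges overlapped that of Vamp2. The order depends on the length used: without it, the median of Syt11 (552 CPM) was above that of Vamp2 (503 CPM). Syt4 and Syt11 are synaptotagmins that do not bind calcium in the usual way. Vesicle transporters were low, with medians of 11.2 CPM per kb for Slc17a7, 10.7 for Slc17a6 and 10.4 for Slc32a1, and overlapping ranges. Slc30a3 (0.227) and Syt2 (0.284), the fast calcium sensor of hindbrain and parvalbumin synapses, were at the bottom of the order.

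Set 1 asked what changes in the RNA of neurons given an ApoE particle, ApoE being the main apolipoprotein of the brain. The presynaptic genes fell almost as a block: 34 of 40 fell and 2 rose, with a median log2 fold change of −0.68 against −0.01 over all genes tested. Over all 16475 genes tested, 17.4% fell, 18.9% rose and 36.4% were called in either direction (edgeR's quasi-likelihood test, Benjamini-Hochberg adjusted p under 0.05). All 4 transporters fell, as did 8 of 9 calcium sensors, 5 of 6 fusion proteins, 6 of 7 active zone genes and 11 of 14 vesicle membrane genes. Summed over the 40 genes, the controls held 9854 and 10409.6 CPM and the particle libraries 6391 and 6159.5 CPM. The controls of the ADM experiment and of set 2 held 6776 to 7971 CPM, below both set 1 controls.

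Among the transporters, Slc17a7 stood at 165 and 154 CPM in the set 1 controls and at 46.0 and 47.2 CPM with the particle. The groups were far apart, and the log2 fold change was −1.77 ± 0.09 (SE, adjusted p = 8.89e-07). Slc30a3, which sits on vesicles beside Slc17a7, went from 9.85 and 9.77 CPM to 0.736 and 0.393 CPM, which is 152 and 165 counts against 12 and 7 (−4.12 ± 0.29, adjusted p = 3.67e-06). Slc32a1 of inhibitory terminals fell less, from 44.2 and 37.9 to 25.0 and 24.1 CPM (−0.74 ± 0.11). Slc17a6 fell least of the transporters, from 69.8 and 68.4 to 52.5 and 47.7 CPM (−0.46 ± 0.09). The ratio of Slc17a7 to Slc17a6 per kb was 2.37 and 2.25 in the controls and 0.878 and 0.991 with the particle, the latter on 750 and 842 counts of Slc17a7 and 855 and 851 of Slc17a6.

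**Figure D1:**
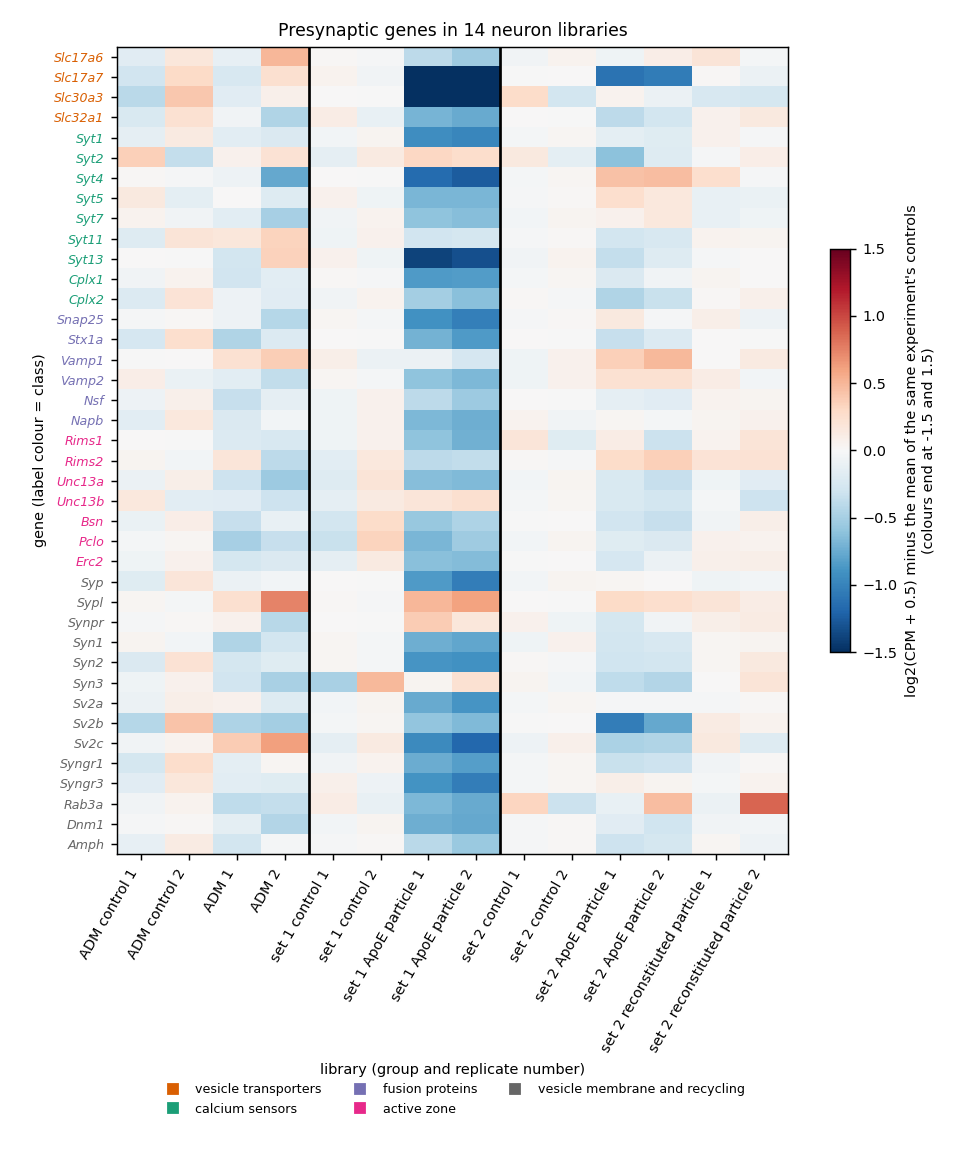
Heat map of the 40 presynaptic genes (rows, label colour by class) in the 14 neuron libraries (columns). Colour is log2(CPM + 0.5) minus the mean of the controls of the same experiment, blue for lower and red for higher, and it saturates at −1.5 and 1.5; the set 1 particle columns are blue in nearly all rows, while in set 2 blue and red rows alternate and the reconstituted particle columns are pale.

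Of the calcium sensors, Syt13, a synaptotagmin without calcium binding, had the largest fall, from 101 and 92.2 CPM to 36.4 and 38.2 CPM (−1.37 ± 0.09). Syt4 went from 384 and 382 to 172 and 161 CPM (−1.20 ± 0.09). Syt1, the sensor for fast synchronous release in forebrain, went from 755 and 802 to 408 and 395 CPM (−0.95 ± 0.09, adjusted p = 1.93e-05). In each of these the lower control lay well above the higher particle library. The complexins Cplx1 and Cplx2 fell by 0.84 and 0.56, Syt5 and Syt7 by 0.69 and 0.63 and Syt11 by 0.28. Syt2 was not called, at 1.49 and 1.90 against 2.21 and 2.13 CPM (0.35, 95% interval −0.27 to 0.97).

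The core of the fusion complex fell together. Snap25 had 401 and 385 CPM in the controls and 209.9 and 193 with the particle (−0.96 ± 0.09, adjusted p = 1.94e-05). Stx1a, the syntaxin of the plasma membrane, went from 224 and 223 to 136 and 124 CPM (−0.78 ± 0.09), and Napb, the brain form of the NSF adaptor, from 306 and 335 to 201 and 193 CPM (−0.70 ± 0.09). Vamp2 and Nsf fell by 0.64 and 0.47. Vamp1, the other vesicle SNARE, had a median of 0.947 CPM per kb over the neuron libraries and was not called (−0.17, interval −0.49 to 0.14).

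In the active zone, Rims1, which tethers vesicles and calcium channels, went from 143 and 156 to 98.1 and 90.3 CPM (−0.67 ± 0.09). Unc13a (Munc13-1), which primes vesicles, went from 272 and 355 to 200.2 and 196 CPM (−0.66 ± 0.12), and Erc2 (ELKS2) from 224 and 272 to 159.9 and 157 CPM (−0.65 ± 0.10). The 2 control libraries differed in this class, most of all for the very long transcripts of Bsn (293 and 432 CPM) and Pclo (237 and 377 CPM), whose falls of 0.54 and 0.65 had the larger errors of 0.16 and 0.20. DESeq2 did not call Bsn and Pclo, or Synpr of the vesicle membrane. Unc13b (Munc13-2) had the opposite sign and was not called (0.20, interval −0.01 to 0.41).

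Of the vesicle membrane genes, Sv2c went from 32.7 and 39.2 to 18.2 and 15.5 CPM (−1.09 ± 0.13). Syngr3, a synaptogyrin, went from 245 and 220.1 to 124 and 113 CPM (−0.97 ± 0.10), and Syp (synaptophysin), the most used vesicle marker, from 307 and 303 to 169.7 and 148 CPM (−0.94 ± 0.10). Of the synapsins that tether vesicles in reserve, Syn2 and Syn1 fell by 0.90 and 0.76. Syn3 was not called (0.06, interval −0.64 to 0.75), with particle libraries of 57.4 and 65.4 CPM between controls of 39.7 and 78.0 CPM. The direction of Syn3 is not settled by these libraries. Sypl and Synpr, both relatives of synaptophysin, were the members that rose. Sypl, which is also made outside neurons, rose from 36.3 and 35.4 to 51.1 and 54.9 CPM (0.56 ± 0.09, adjusted p = 8.31e-04). Synpr (synaptoporin) rose from 63.9 and 63.0 to 82.6 and 71.3 CPM (0.28 ± 0.10, adjusted p = 4.15e-02), and that call was lost when either particle library was left out, which left 1 member called higher in place of 2. Without the second control library 4 members were called higher.

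Other presynaptic genes outside the 40 went the same way in set 1, with 35 falls and 7 rises among 58 tested. Rph3a (rabphilin, a calcium-binding partner of Rab3) fell by 1.20, Ppfia4 (a liprin of the active zone) by 1.15 and Rab3b by 1.07. The 7 that rose, named after their values were seen, were Vamp3, Syt6, Snap23, Stx2, Syngr2, Dnm2 and Snapin.

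Markers of whole cell types moved in the same set 1 libraries. Of 12 pan-neuronal markers 10 fell (median −0.52), and their sum went from 9202 and 9756 to 7198 and 6896 CPM. Set against that sum, the sum of the 40 presynaptic genes was 107 and 107 percent in the controls and 88.8 and 89.3 percent with the particle. In the ADM and set 2 libraries this ratio was 67.1 to 76.7 percent, so the set 1 controls were the highest of the neuron libraries. What set these controls apart was not tested. All 11 microglia markers tested rose, with sums of 98.3 and 79.6 against 307 and 301 CPM, and so did all 10 proliferation markers, with sums of 167 and 151 against 554 and 657 CPM. C1qa rose by 1.87 and Top2a by 2.07. Of 10 astrocyte markers 7 rose and 1 fell, with Gfap up by 0.95, and of 12 inhibitory neuron markers 6 fell and 1 rose, with Gad1 down by 0.39. Of 11 excitatory neuron markers, the member Slc17a7 among them, 8 fell, with sums of 1459 and 1491 against 943 and 913 CPM. Slc17a7 alone went from 165 and 154 to 46.0 and 47.2 CPM. Of 10 vessel and fibroblast markers 6 rose and 1 fell, with sums of 121 and 87.6 against 357 and 394 CPM. Rest, the repressor of neuronal genes outside neurons, stood at 15.7 and 19.4 CPM in the controls and at 26.6 and 31.2 CPM with the particle. The part of these shifts in the presynaptic falls was not tested.

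**Figure D2:**
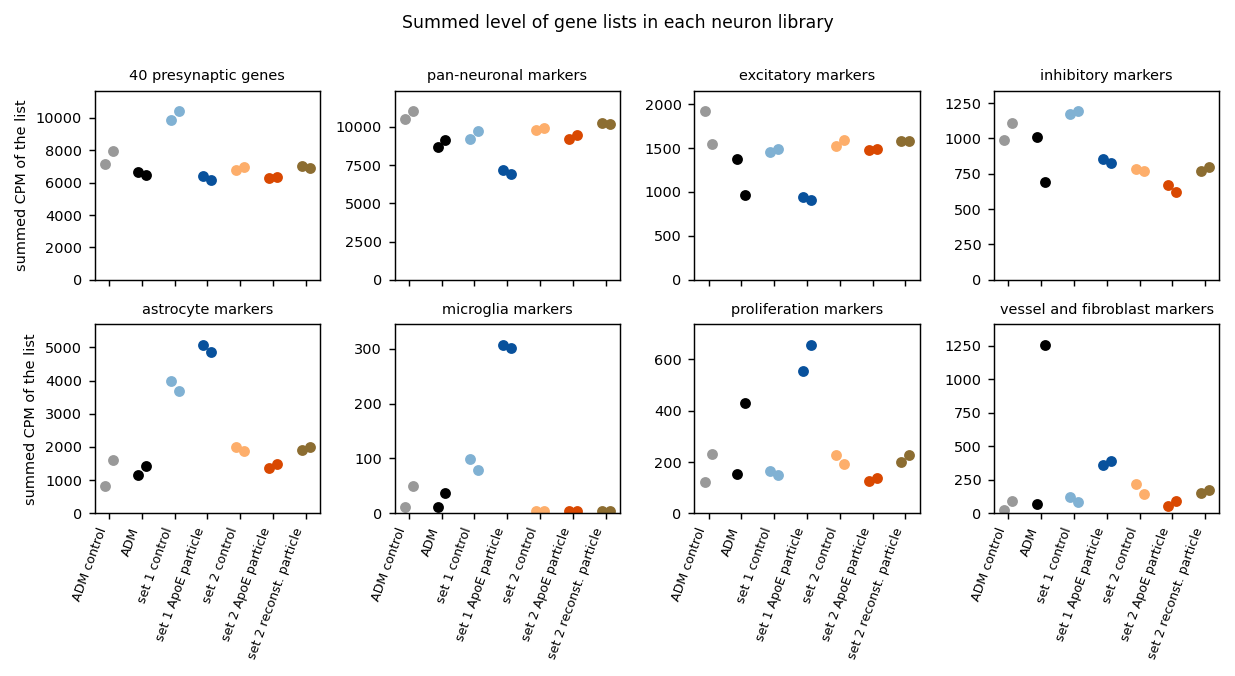
Summed CPM of the 40 presynaptic genes and of 7 marker lists (1 panel each, vertical axis from 0) in the 7 neuron groups, with 1 point per library. In set 1 the presynaptic and neuronal sums were lower and the astrocyte, microglia and proliferation sums higher with the particle; the second ADM library alone reached 1256 CPM of vessel and fibroblast markers.

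In set 2 the same comparison gave smaller and mixed changes. Of 39 presynaptic genes tested, 20 fell and 5 rose, with a median log2 fold change of −0.17 against 0.00 over all genes. Of 16388 genes tested, 12.1% fell, 10% rose and 22.1% were called in either direction. Slc30a3 was under the filter on low counts, with 4 to 10 counts in each of the 6 libraries. By class, 2 of 3 transporters tested, 3 of 9 calcium sensors, 2 of 6 fusion proteins, 5 of 7 active zone genes and 8 of 14 vesicle membrane genes fell, and the rises were 2 calcium sensors and 1 gene in each of the last 3 classes. Without the first control library 2 members were called higher, and without the first particle library 3.

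The largest falls in set 2 were those of Slc17a7 and Sv2b, both at glutamatergic vesicles. Slc17a7 was also among the largest falls of set 1, while Sv2b went from 149 and 156 to 101 and 96.2 CPM there. Slc17a7 went from 62.4 and 62.7 CPM to 28.8 and 30.0 CPM (−1.09 ± 0.08, adjusted p = 1.79e-10). Sv2b, the SV2 protein of excitatory terminals, went from 75.9 and 76.4 to 36.8 and 44.7 CPM (−0.90 ± 0.08, adjusted p = 1.24e-08). Sv2a, the form found at nearly all synapses, was not called, at 237 and 248 against 239.9 and 240.4 CPM (−0.01, interval −0.11 to 0.08). Slc17a6 was not called either, at 58.3 and 62.7 against 57.6 and 64.8 CPM (0.02, interval −0.14 to 0.18), and the ratio of Slc17a7 to Slc17a6 per kb was 1.07 and 1.00 in the controls and 0.501 and 0.463 with the particle. Slc32a1 fell from 27.2 and 26.8 to 20.4 and 22.2 CPM (−0.34 ± 0.10).

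Slc17a7 and Sv2b were among the 18 members that fell in both sets, a pattern not counted over all genes. Their promoters are shown beside that of Syn1, a gene with a widely used neuronal promoter, which fell by 0.76 in set 1 and 0.26 in set 2. Each sequence runs from 250 bases before to 50 bases after the start site of the RefSeq transcript in GRCm38.p6. Capitals mark the letters searched for on both strands: the cAMP response element TGACGTCA, the half-sites TTCAGCA and GGACAG of the RE1 element that binds REST, and the TATA box TATAAA. The Slc17a7 promoter lies on the plus strand at chr7:45163671-45163970, that of Sv2b, the outermost of 4 windows in the table, on the minus strand at chr7:75309213-75309512 and that of Syn1 on the minus strand at chrX:20920869-20921168.
Slc17a7: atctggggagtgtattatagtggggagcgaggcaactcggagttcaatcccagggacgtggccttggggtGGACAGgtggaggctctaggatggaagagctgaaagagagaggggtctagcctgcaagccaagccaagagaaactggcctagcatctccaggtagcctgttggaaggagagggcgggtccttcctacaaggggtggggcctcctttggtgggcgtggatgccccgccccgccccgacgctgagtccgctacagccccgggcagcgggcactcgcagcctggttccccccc
Sv2b: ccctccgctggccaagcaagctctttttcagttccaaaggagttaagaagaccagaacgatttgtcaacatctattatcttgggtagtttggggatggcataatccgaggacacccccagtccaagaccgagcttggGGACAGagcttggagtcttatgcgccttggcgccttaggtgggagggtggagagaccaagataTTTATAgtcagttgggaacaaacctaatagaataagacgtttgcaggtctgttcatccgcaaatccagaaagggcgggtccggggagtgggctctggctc
Syn1: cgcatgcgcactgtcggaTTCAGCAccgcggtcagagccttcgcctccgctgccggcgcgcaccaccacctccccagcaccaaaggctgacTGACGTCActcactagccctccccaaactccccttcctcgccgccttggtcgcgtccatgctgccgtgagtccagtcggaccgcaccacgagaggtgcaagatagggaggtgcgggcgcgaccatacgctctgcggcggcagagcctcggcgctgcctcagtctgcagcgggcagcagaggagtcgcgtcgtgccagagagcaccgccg

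Promoters were found in the RefSeq table for 31 of the 40 genes, as 42 windows, and were set beside 32851 promoters of the same length. The cAMP response element was in 1 of the 42 windows, that of Syn1, against 1.79% of all promoters. The left RE1 half-site was in 2 of 42, of Syn1 and Unc13a (4.70% of all promoters), the right half-site in 12 of 42, Slc17a7 and Sv2b among them (22.2%), and the TATA box in 3 of 42, of Slc30a3 and Sv2b (13.6%). No 2 of these matches overlapped in a member's promoter. In Sv2b the TATA letters stand as their reverse complement. Many of the members' promoters were rich in CpG: the median GC content was 62.2% against 52.7% over all promoters, and 21 of 42 windows (against 27.9% of all promoters) had both over 55% GC and a CpG observed-to-expected ratio over 0.65. Slc17a7 had 63.7% GC with a CpG ratio of 0.438, Sv2b 51.3% with 0.517 and Syn1 68.3% with 0.957.

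Among the calcium sensors of set 2, Syt4 went up where it had gone down in set 1, from 325 and 337 to 448 and 456 CPM (0.45 ± 0.08, adjusted p = 3.79e-03). Cplx2 fell from 473 and 459 to 341 and 368 CPM (−0.40 ± 0.05, adjusted p = 5.25e-07) and Syt11 from 536 and 548 to 449 and 461 CPM (−0.25 ± 0.04). Syt1 fell by only 0.16, from 385 and 398 to 355 and 346 CPM, and Syt5 rose by 0.21. In all of these the 2 groups did not overlap.

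The fusion proteins split in set 2. Stx1a fell from 182 and 179.7 to 142 and 157 CPM (−0.27 ± 0.06) and Nsf from 199 and 196 to 179.8 and 176 CPM (−0.15 ± 0.05). Vamp2 rose from 408 and 446 to 501 and 499.6 CPM (0.23 ± 0.05, adjusted p = 2.68e-03). Snap25 overlapped between the groups, at 202 and 208 against 226 and 203 CPM, and was not called (0.06, interval −0.05 to 0.18).

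In the active zone, Rims2 rose from 50.4 and 49.2 to 60.5 and 63.7 CPM (0.32 ± 0.07). Bsn fell from 410.0 and 414 to 337 and 325 CPM (−0.32 ± 0.05) and Unc13a from 382 and 406 to 335 and 311 CPM (−0.29 ± 0.05), with controls much closer to each other than in set 1. Rims1 was lower in all set 2 libraries (19.8 to 28.5 CPM) than in the other neuron libraries (90.3 to 156 CPM) and was not called. Rab3a, the GTPase that brings vesicles to RIM, was lower still, at 5.34 to 12.8 CPM in set 2 against 179 to 386 CPM elsewhere, and gave no call there (0.18, interval −0.74 to 1.10). The 3′ end of Rab3a overlaps Mpv17l2, and 12 of the 40 genes overlap another coding gene, but Rims1 does not. The strand setting of the counting is not given in the sources used here, so reads of overlapping pairs cannot be told apart. The cause of the low set 2 values of Rims1 and Rab3a was not tested.

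Of the vesicle membrane genes, Sv2c fell in set 2 from 36.5 and 40.6 to 27.6 and 27.9 CPM (−0.47 ± 0.11) and Syn3 from 89.8 and 84.8 to 66.7 and 64.3 CPM (−0.41 ± 0.07, adjusted p = 1.25e-04). Sypl rose in this set too, from 25.9 and 25.8 to 31.6 and 30.9 CPM (0.27 ± 0.10, adjusted p = 4.33e-02), but DESeq2, upper-quartile scaling, the replicate block and leaving out any 1 control or particle library each ended that call. Of the other presynaptic genes 11 fell and 4 rose among 59 tested. Rph3a fell by 0.74, as it had in set 1, Rab3d fell by 0.62, the channel subunit Cacnb4 rose by 0.52 and Syt9 by 0.47.

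Cell type markers moved in other ways here than in set 1. Of 12 pan-neuronal markers 3 fell (median −0.05). Set against their sum, the presynaptic sum was 69.2 and 70.1 percent in the controls and 68.4 and 67.1 percent with the particle. Of 10 astrocyte markers 7 fell and 1 rose, with sums of 1991 and 1878 against 1354 and 1491 CPM and Gfap down by 1.59. Of 10 proliferation markers 9 fell, with Top2a down by 0.55, and 6 of 11 inhibitory neuron markers fell, while Gad1 rose by 0.21. Of 11 excitatory neuron markers, the member Slc17a7 among them, 4 fell and 0 rose (median −0.10). Of 10 vessel and fibroblast markers 6 fell, with sums of 217 and 145 against 58.0 and 94.9 CPM. Microglia markers were near 0 in set 2, with sums of 3.99 to 5.12 CPM, and C1qa was at 0 in 3 of the 6 libraries. Rest was at 12.3 and 13.1 against 15.1 and 13.8 CPM. Their part in the presynaptic changes was not tested.

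**Figure D3:**
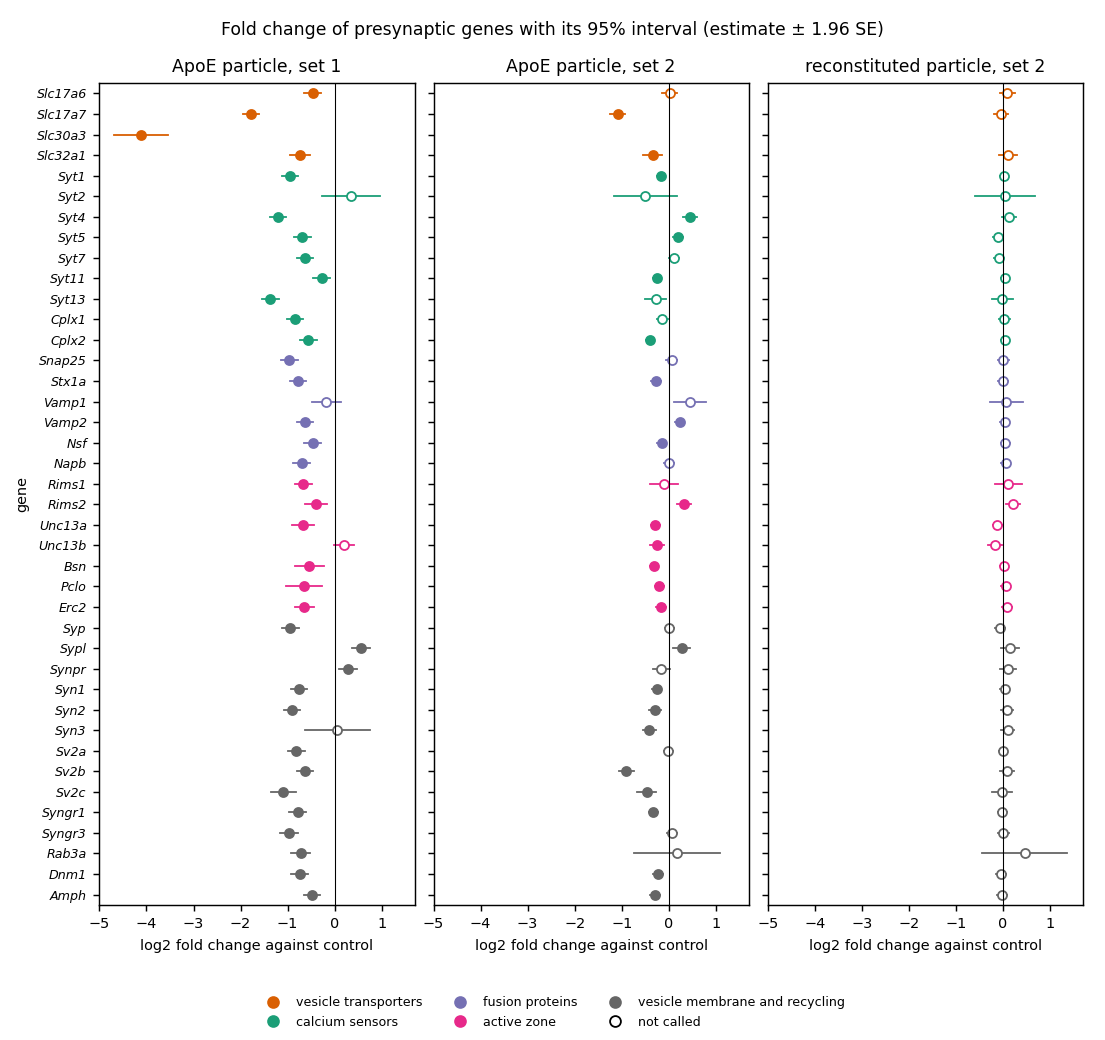
Log2 fold change (horizontal axis) of each presynaptic gene against its own control, for the ApoE particle in set 1, the ApoE particle in set 2 and the reconstituted particle in set 2; bars are 95% intervals and open circles were not called. Nearly all set 1 points lie left of 0, Slc17a7 and Sv2b stand out on the left in set 2, and the points of the reconstituted particle lie near 0.

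The particle effect was compared between the sets with an interaction term, where a positive value means a higher log2 fold change in set 2 than in set 1. The difference was called for 26 of 40 members, 24 positive and 2 negative (4 negative without the second set 1 control library and 1 without the first library of the set 1 particle, set 2 control or set 2 particle group), with a median of 0.51 against 0.00 over all genes. Of 17098 genes tested, 14.8% were called positive, 16.4% negative and 31.1% in either direction. Syt4 had the most clearly different response, with −1.20 in set 1 and 0.45 in set 2 (difference 1.62 ± 0.09, adjusted p = 1.58e-08). Syt5, Vamp2 and Rims2 also fell in set 1 and rose in set 2, with differences of 0.87, 0.84 and 0.68. Of the 18 members that fell in both sets, 10 fell more in set 1 by this test, among them Slc17a7 (difference 0.66 ± 0.11, adjusted p = 2.73e-04) and Syt1 (0.76 ± 0.09). For the other 8 no difference was called: Slc32a1, Syt11, Cplx2, Unc13a, Bsn, Pclo, Sv2b and Amph, with an interval of −0.19 to 0.18 for Syt11 and with Sv2b at −0.30 (interval −0.53 to −0.06, adjusted p = 7.40e-02). Patterns of calls across both sets, here and below, were counted for the members only, with no share over all genes.

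A further 11 members fell in set 1 and were not called in set 2, and the difference itself was called for 9 of them, all but Rims1 and Rab3a. Snap25 (1.00 ± 0.10), Syngr3 (1.01 ± 0.11), Syp (0.92 ± 0.10), Syt13 (1.06 ± 0.13) and Sv2a (0.78 ± 0.10) led this group. The negative differences were Unc13b (−0.49 ± 0.12) and Synpr (−0.47 ± 0.13). Slc30a3 had the largest value (3.99 ± 0.73), which rests on the 4 to 10 counts per library in set 2. Of the other presynaptic genes 32 were called positive and 5 negative among 58, with Syt16 (0.83), Sncb (0.87) and Scamp5 (0.63). The marker lists differed between the sets as well: 10 of 10 proliferation markers and 6 of 10 astrocyte markers had negative differences and 7 of 12 pan-neuronal markers positive ones. The experiments differ in their cultures and libraries too, and what sets the difference cannot be told apart from the experiment.

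The reconstituted particle was set against the same set 2 controls, so the comparisons of set 2 share libraries and are not independent. None of the 39 presynaptic genes tested was called, as was none of the 16388 genes (0%), and DESeq2 called 0 genes too. At an unadjusted p under 0.05 there were 776 genes with edgeR and 258 with DESeq2, of which 3 presynaptic genes with edgeR: Rims2 (0.21, interval 0.07 to 0.35), Unc13a (−0.12, interval −0.22 to −0.02) and Unc13b (−0.17, interval −0.32 to −0.02). The member median was 0.04 against 0.00 over all genes, and the libraries did not overlap for 10 members on the high side and 6 on the low side, where 16.4% and 16.6% of all genes tested did so. Slc17a7 stood at 63.1 and 58.7 CPM beside controls of 62.4 and 62.7 CPM (−0.04, interval −0.18 to 0.11), and Sv2b at 83.0 and 78.8 CPM beside 75.9 and 76.4 CPM (0.09, interval −0.06 to 0.24). Syt4 had 394 and 327 CPM beside 325 and 337 CPM (0.12, interval −0.03 to 0.27), Syt1 411 and 388 CPM, and Snap25 218 and 194 CPM.

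Head to head, reconstituted and ApoE particle neurons differed in 24 of 39 members, 20 higher and 4 lower with the reconstituted particle, with a median of 0.22. Of all genes tested 11.4% were higher, 8.88% lower and 20.3% called in either direction. Slc17a7 (1.05 ± 0.08, adjusted p = 4.31e-10) and Slc32a1, at 28.2 and 29.9 against 20.4 and 22.2 CPM (0.45 ± 0.10), were higher, as were Sv2b (0.99 ± 0.08), Syn3, at 87.4 and 100.1 against 66.7 and 64.3 CPM (0.52 ± 0.07), and Sv2c, at 42.7 and 33.5 against 27.6 and 27.9 CPM (0.45 ± 0.11). Cplx2 had 469.9 and 492 against 341 and 368 CPM (0.44 ± 0.05). Bsn had 399 and 439 against 337 and 325 CPM (0.34 ± 0.05), Pclo 271 and 269.6 against 229 and 224 CPM (0.26 ± 0.05) and Erc2 210.4 and 213 against 168 and 188 CPM (0.25 ± 0.05).

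The 4 genes that were lower with the reconstituted than with the ApoE particle were Syt4 (−0.33 ± 0.08), Syt5 (−0.32 ± 0.05), Syt7 (−0.21 ± 0.06) and Vamp2 (−0.19 ± 0.05). Syt5 had 145 and 146 CPM against 187 and 175 CPM, and Vamp2 460.1 and 415 CPM against 501 and 499.6 CPM. Stx1a and Nsf were higher by 0.27 and 0.20, at 181 and 179.8 and at 204 and 203 CPM. Without the second ApoE particle library 2 members, Syt5 and Vamp2, remained in the lower group in place of 4. Other presynaptic genes had 10 higher and 5 lower calls among 59, led by Rph3a (0.77), Rab3d (0.59), Dnm3 (0.33) and Erc1 (0.27). Astrocyte markers were higher in 7 of 10 cases and proliferation markers in 8 of 10, with Gfap higher by 1.49, Top2a higher by 0.57 and Gad1 lower by 0.26; their part was not tested.

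For ADM, none of the 40 presynaptic genes was called, as was none of the 16191 genes tested (0%). At an unadjusted p under 0.05 there were 1426 genes, and DESeq2 called 314 genes but 0 of the 40. The fold change was negative for 33 of 40 members, with a median of −0.21 against 0.02 over all genes. It was also negative for 9 of 12 pan-neuronal markers (median −0.26), 9 of 11 excitatory (−0.51) and 12 of 12 inhibitory neuron markers (−0.29). It was positive for 10 of 10 vessel and fibroblast markers (median 2.45) and 10 of 10 proliferation markers (0.81). The part of these markers was not tested. The ADM libraries lay below both controls for 18 members and above them for 3, where 19.5% and 20.9% of all genes tested did so. The unadjusted p was under 0.05 for 5 members. Of these, Pclo (355 and 371 against 256 and 286 CPM, −0.42 ± 0.13), Unc13a (266 and 299.8 against 227 and 193 CPM, −0.43 ± 0.15), Rab3a (−0.37 ± 0.12) and Syn1 (−0.37 ± 0.13) were lower, and Sv2c, at 16.0 and 17.2 against 21.8 and 25.7 CPM, was higher (0.52 ± 0.19). Their adjusted p ran from 0.547 to 0.559.

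The transporters varied more between ADM libraries than between the groups. Slc17a7 had 43.6 and 65.0 CPM in the controls and 44.9 and 63.0 CPM with ADM (−0.01, interval −0.56 to 0.54). Slc17a6 had 24.2 and 30.5 against 24.9 and 38.5 CPM, Slc32a1 35.1 and 48.1 against 39.7 and 30.0 CPM, and Slc30a3 0.721 and 1.63 against 0.935 and 1.20 CPM. Syt1 had 488 and 588 against 479 and 463 CPM (−0.19, interval −0.47 to 0.09), and Snap25 321 and 329 against 309 and 242 CPM (−0.24, interval −0.55 to 0.08). Syt4 had 516 and 504 against 482 and 299.7 CPM, where the low value is from the ADM library with the high vessel and fibroblast sum. None of the 60 other presynaptic genes tested was called.

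**Figure D4:**
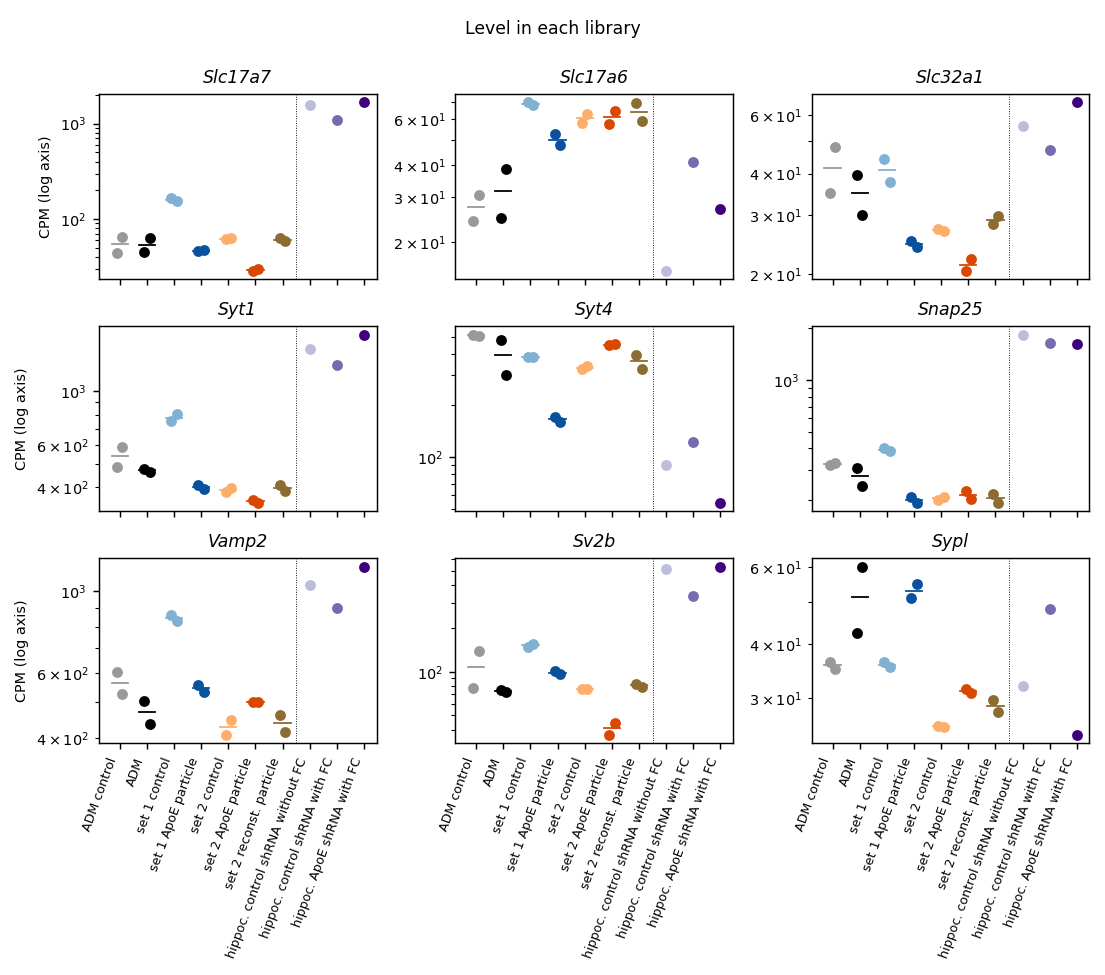
CPM (log axis) of 9 presynaptic genes in the 17 libraries, with 1 point per library and a bar at the mean of each neuron group; the dotted line parts neurons from hippocampus. Slc17a7 lies between 28.8 and 165 CPM in neurons and between 1093 and 1667 CPM in hippocampus, Syt4 is lower in hippocampus, and in set 2 Slc17a7 and Sv2b are low with the ApoE particle and near control with the reconstituted one.

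In hippocampus, the shRNA target Apoe stood at 1697 CPM with control shRNA and no FC and 2797 CPM with control shRNA and FC. With ApoE shRNA and FC it stood at 1384 CPM. Apoe in the ApoE shRNA library was thus 0.495 of the level in the control library with FC and 0.815 of that without FC. Gfap and C1qa were 0.216 and 0.0808 of their level in the control library with FC, and 0.802 and 0.785 of that without FC. How much of the Apoe difference came from the shRNA was not tested. With 1 library per group there is no test; ratios are of CPM, their 95% exact binomial intervals cover counting error only, and a gene is counted as different where the ratio reached 1.5-fold and the higher library had 100 or more counts. All 40 members had that many counts in each of the 3 comparisons.

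With FC, in mice given control shRNA, 3 presynaptic genes were at least 1.5-fold higher and 1 lower, where 12.3% of 12510 genes were higher, 4.46% lower and 16.7% either. The member median was −0.21 against 0.025 over all genes. With TMM scaling in place of library totals the balance turned, with 1 member higher and 3 lower. Slc17a6 was higher with FC, at 40.8 against 15.5 CPM (726 and 282 counts, ratio 2.63, log2 interval 1.19 to 1.60). Sypl (48.2 against 32.0 CPM) and Sv2c (56.6 against 37.5 CPM) both had a ratio of 1.51. Sv2b was lower, at 335 against 516 CPM (ratio 0.65, log2 interval −0.67 to −0.57), and Slc17a7 had 1093 against 1556 CPM (ratio 0.703), short of the 1.5-fold mark. The same library with FC had 2117 against 569.6 CPM of Gfap and 453 against 46.7 CPM of C1qa, and the part of its glial content in these ratios was not tested.

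With FC in both, the ApoE shRNA library had 7 presynaptic genes at least 1.5-fold higher and 3 lower than the control shRNA library, where 4.46% of 12474 genes were higher, 17.9% lower and 22.3% either. The member median was 0.40 against −0.02 over all genes, and TMM scaling gave 11 higher and 2 lower. The higher genes were Syp (823 against 474 CPM, ratio 1.74), Amph (294 against 176, ratio 1.67), Nsf (1366 against 822, ratio 1.66), Sv2b (532 against 335, ratio 1.59), Rab3a (583 against 369, ratio 1.58), Dnm1 (1818 against 1150.1, ratio 1.58) and Slc17a7 (1667 against 1093, ratio 1.52). The lower ones were Syt4 (54.5 against 123 CPM, ratio 0.443), Sypl (24.8 against 48.2, ratio 0.514) and Slc17a6 (26.9 against 40.8, ratio 0.660). This comparison and the one before share the library with control shRNA and FC, which stood apart in glial markers. Gfap was 457 against 2117 CPM and C1qa 36.6 against 453 CPM here, and their part was not tested.

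Without that library, the ApoE shRNA mice with FC can be set against the control shRNA mice without FC, though both shRNA and FC then differ. There 1 presynaptic gene was at least 1.5-fold higher and 1 lower, where 1.14% of 11980 genes were higher, 6.09% lower and 7.24% either, and the member median was 0.17 against 0.01 over all genes. TMM scaling gave 2 higher and 1 lower. Pan-neuronal markers summed to 4095 against 4078 CPM and excitatory neuron markers to 7176 against 6520 CPM. Slc17a6 was the higher gene (26.9 against 15.5 CPM, 509 and 282 counts, ratio 1.73) and Syt4 the lower (54.5 against 90.2 CPM, 1029 and 1639 counts, ratio 0.604). Slc17a7 had a ratio of 1.07 and Sv2b of 1.03, with 1667 against 1556 and 532 against 516 CPM. Snap25 had 1610.3 against 1840.0 CPM (ratio 0.875) and Syt1 1718 against 1501 CPM (ratio 1.14). Slc32a1 had 65.4 against 55.5 CPM (ratio 1.18) and Slc30a3 102 against 77.0 CPM (ratio 1.33).

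**Figure D5:**
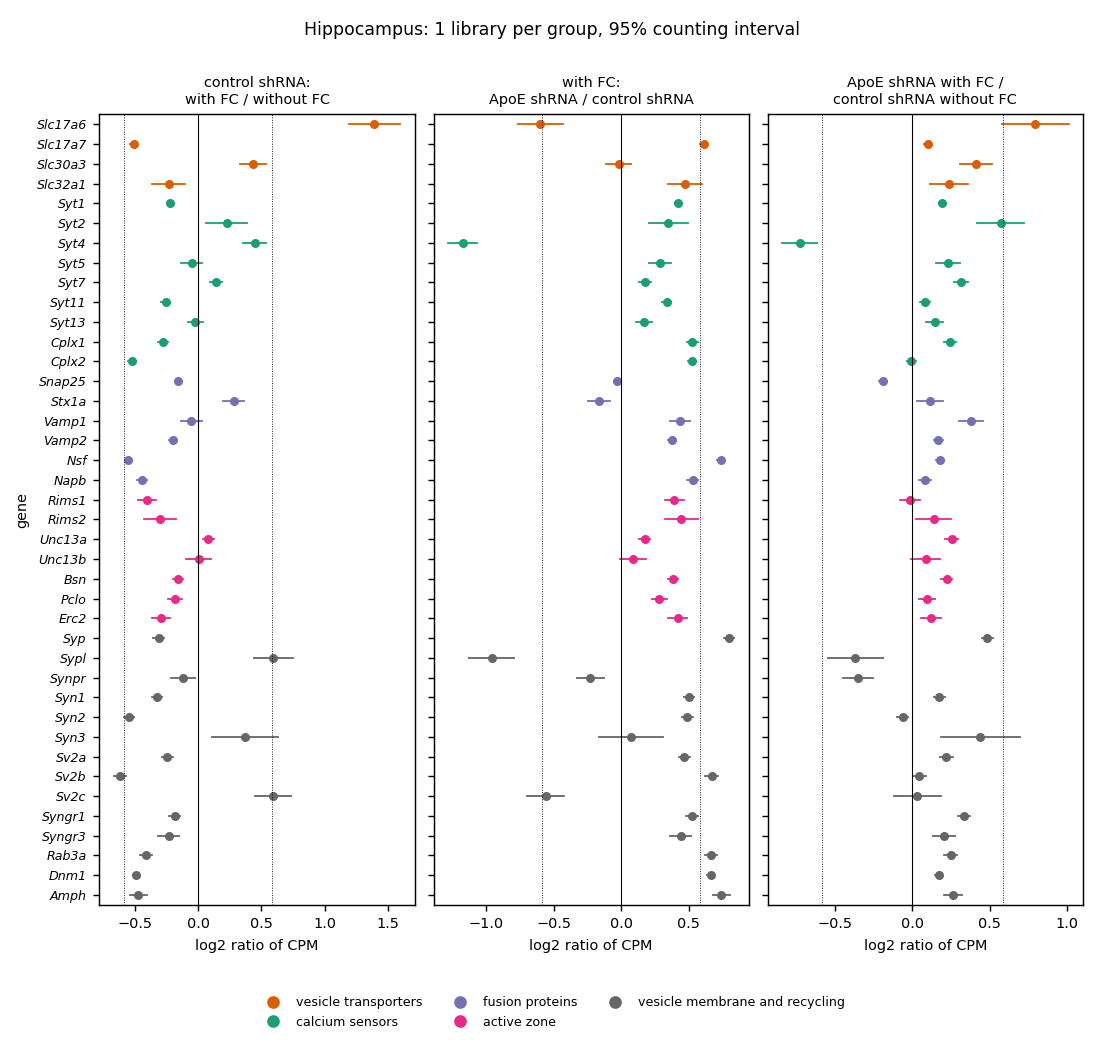
Log2 ratio of CPM (horizontal axis) of each presynaptic gene in the 3 comparisons of hippocampus libraries, with 95% counting intervals; dotted lines mark 1.5-fold. Most points lie left of 0 with FC in control shRNA mice and right of 0 for ApoE shRNA against control shRNA with FC, and Slc17a6, Syt4, Sypl and Sv2c lie on the other side from most genes in those panels.

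Levels in tissue and culture are set side by side as a description, without a test. In hippocampus 24 of 40 members lay above all 14 neuron libraries, 2 lay below them and 14 overlapped. The same count was not made over all genes, so whether it is particular to the members is not known. Hippocampus CPM rests on library totals, while neuron CPM also uses TMM factors. Slc30a3 had a ratio of medians of 159, Slc17a7 of 25.7, Syt2 of 17.6, Vamp1 of 14.2, Syt13 of 12.9, Dnm1 of 7.93 and Snap25 of 7.40. The genes below the whole culture range were Syt4 (54.5 to 123 CPM against 161 to 516) and Syn3 (12.1 to 16.4 against 39.7 to 100.1). Slc17a7 to Slc17a6 per kb was 100.4, 26.8 and 62.0 in the hippocampus libraries without FC, with FC, and with ApoE shRNA and FC, against 0.463 to 2.37 in the neurons. The balance within the 5 other pairs of related genes measured also lay above the range of the neurons. Vamp1 to Vamp2 per kb was 0.0495 to 0.0573 against 0.00505 to 0.0103, Syt2 to Syt1 0.0237 to 0.0325 against 0.00215 to 0.00723 and Cplx1 to Cplx2 1.24 to 1.47 against 0.585 to 0.954. Syn2 to Syn1 was 0.447 to 0.526 against 0.128 to 0.298 and Sv2b to Sv2a 0.440 to 0.571 against 0.0848 to 0.321. The level order per kb in hippocampus began with Dnm1 (308), Slc17a7 (289) and Vamp2 (272), and Syt4 ranked 28 there in place of 3 in the neurons.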

How the data were processed

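RNA from 17 libraries was prepared, per the labels' protocols, by Trizol extraction and with the NEBNext Ultra RNA kit, for Illumina sequencing. The values are raw read counts per gene as deposited by the authors, made, per the submitters' processing notes, with HTSeq 0.6.0, HISAT2 2.1.0 and Bowtie2 2.2.3 on build mm10. What each tool did, and the strand setting, is not given in the sources used here. Tables listed 24652 to 31762 genes, and 1489 genes blank in some set 2 libraries, no member among them, were left out.

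Neuron counts were filtered with edgeR's filterByExpr, scaled by TMM and tested with edgeR 4.0.16 (quasi-likelihood F test, R 4.3.3), with p-values adjusted over all genes by Benjamini-Hochberg and a threshold of 0.05. Errors are SE from that fit, and intervals are the estimate ± 1.96 SE, nominally 95%. They make no allowance for the few degrees of freedom of the F test and are narrower than that test implies. For Erc2 with ADM the interval was −0.48 to −0.01 at an unadjusted p of 0.104 by that test. The 3 groups of set 2 shared 1 fit, and the interaction used genes of both tables. The fit was also run on simulated data, in which far fewer genes changed than were called in sets 1 and 2. No result here rests on that run. Hippocampus ratios used library totals and a prior of 0.5 counts. Levels per kb used exon lengths of GENCODE M21, found for all 40 genes. The length was that of all annotated exons of a gene merged, not of the transcript in use. Promoters came from RefSeq.

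Values in every library are given for Slc17a6, Slc17a7, Slc32a1, Slc30a3, Syt1 and Snap25 and, per comparison and class, for up to 3 called members with groups that did not overlap and the largest fold change. Up to 4 other presynaptic genes per comparison are named by lowest adjusted p. The values of 1 gene that this rule names are not reported here. The members and lists were chosen with earlier results of these data known. Alternatives were library totals, upper-quartile scaling, DESeq2 1.42.0, no filter on low counts, a replicate block and leaving out each library in turn.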

Additional observations from a re-analysis of the deposited data

Results flagged for a closer look

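For 26 presynaptic genes the effect of the ApoE particle differed between the 2 neuron experiments by the interaction test (edgeR, adjusted p under 0.05). Values are log2 fold changes in set 2 minus those in set 1. Of the transporters, Slc17a7 differed by 0.66, Slc17a6 by 0.45 and Slc30a3 by 3.99, the last on few set 2 counts. Of the calcium sensors, Syt4 differed by 1.62, Syt13 by 1.06, Syt5 by 0.87, Syt1 by 0.76, Syt7 by 0.71 and Cplx1 by 0.68. Of the fusion proteins, Snap25 differed by 1.00, Vamp2 by 0.84, Napb by 0.67, Stx1a by 0.48 and Nsf by 0.29. In the active zone Rims2 differed by 0.68, Erc2 by 0.45 and Unc13b by −0.49. Of the vesicle membrane genes, Syngr3 differed by 1.01, Syp by 0.92, Sv2a by 0.78, Sv2c by 0.59, Syn2 by 0.58, Dnm1 by 0.48, Syn1 by 0.47, Syngr1 by 0.43 and Synpr by −0.47.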

How the results depend on the processing

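Of 1250 values of single members under the alternatives, 1170 kept their direction and side of the threshold, 80 kept the direction but lost the call, and 0 reversed. Of 152 counts of members, 130 stayed within 1.5 times. DESeq2 called 1 member higher in set 1 in place of 2, and library totals gave 4 negative differences between sets in place of 2. Library totals also moved the share of higher calls over all genes in set 1 from 52.0% to 65.6%, with 3 members higher and 32 lower, and that of the interaction from 47.4% to 38.5%. In hippocampus, with FC in control shRNA mice, TMM gave 1 higher and 3 lower and a 2-fold mark 1 and 0. For ApoE shRNA against control shRNA with FC, TMM gave 11 higher, and a 2-fold mark 0 higher and 1 lower. For ApoE shRNA with FC against control shRNA without it, TMM gave 2 higher, and a 2-fold mark 0 and 0. The cause of these shifts was not tested.

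Leaving out each library gave 1 to 4 higher and 29 to 35 lower members in set 1, 2 to 5 and 14 to 20 in set 2, 17 to 20 and 2 to 4 for the reconstituted against the ApoE particle, 20 to 28 and 1 to 4 for the difference between sets, and 0 for ADM and for the reconstituted particle against control. A lone library was then assumed to vary like the other groups. Over all genes, ADM had 314 calls with DESeq2, 128 without the filter and 465 with the block in place of 0. The set 1 calls went from 5993 to 3521 without the second particle library, those of set 2 from 3617 to 2297 without the first control library, and those of the interaction from 5320 to 3492 without the second set 1 particle library. With the replicate number as a block, set 1 had 2 higher and 34 lower members, set 2 had 4 and 19 (Sypl and Nsf lost), the reconstituted against the ApoE particle 19 and 4, the difference between sets 24 and 2, and the other comparisons 0. Deviations of same-numbered libraries correlated at 0.593 in ADM, 0.0473 in set 1 and −0.156 to 0.0787 in set 2. The labels name no shared source, and 2 numbers per group do not settle whether they pair the libraries. The 1 library per hippocampus group allows no test.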
